A study of Homo sapiens with 4 samples.

Results

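The 9 antisense and long noncoding RNA genes among the 38 genes that the authors listed for NCBP2 overexpression in HCT116 cells are described here. They are the rows whose gene description holds "antisense RNA" or "non-protein coding" and neither "readthrough" nor "pseudogene": SEMA6A-AS2, IDI2-AS1, CCNT2-AS1, KANSL1-AS1, TRHDE-AS1 and RASAL2-AS1, named as antisense to another gene, and the intergenic RNAs LINC02458, LINC00326 and LINC01967. HCT116 is an established human colorectal cancer cell line. RNA sequencing of total RNA compared 2 libraries of HCT116 cells that overexpress NCBP2 with 2 libraries of HCT116 cells of the PCDH control, whose columns are headed EV. Nothing in the labels says whether the overexpressing cells were 1 clone or a pool, or whether libraries of one group are separate cultures. The spread between libraries may then be technical.

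NCBP2 is the cap-contacting subunit of the nuclear cap-binding complex, which it forms with NCBP1 on the methylated guanosine cap of RNA polymerase II transcripts soon after synthesis starts. Through partners such as SRRT and PHAX the complex is known to take part in splicing, 3′ end formation, nuclear export and, with the nuclear exosome, RNA decay. Antisense RNAs and RNAs that start back to back with a protein-coding gene are capped RNA polymerase II products too, and many are known to be short-lived targets of nuclear decay.

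All 38 genes were selected on this same contrast: each is marked as up, with a fold change of at least 2.01 and an unadjusted p-value of at most 0.0495 in the authors' deposited table. The differences of the 9 RNAs between groups are therefore a description of how they were chosen, and no test of them was made. The share of listed genes with an unadjusted p under 0.05 and a fold of at least 2 was 100% by that choice, and it was 9 of 9 for these RNAs. Genes outside the list were not analysed here. The level is a signal whose unit and scaling the table does not name, so depth per library is unknown and levels are not compared between genes. NCBP2 itself had levels of 1067 and 1096 in the NCBP2 libraries, against 77.6 and 59.4 in the control libraries. The ratio of its mean levels was 15.8, whereas its fold in the authors' deposited table was 5.24. The source of this difference was not tested. The 18 markers of colorectal epithelium, fibroblasts, leukocytes and endothelium that were looked for all lie outside the list, so the labelled cell type could not be checked.

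The annotated starts and ends of the RNAs are shown first, because the cap-binding complex acts on the 5′ end and takes part in forming the 3′ end. RefSeq promoter windows of 300 bases (build GRCh38.p14, from 250 bases before the annotated start to 50 after it) were given for 6 of the 9 RNAs. The windows of LINC02458, whose p-value was the smallest of the 9, and of LINC01967, chosen after its values were seen for its separation of the groups, follow with the stretch of the RASAL2-AS1 window that lies outside RASAL2 exons. Capitals mark the bases from the annotated start onwards.
LINC02458, chr12:89019643-89019942, minus strand: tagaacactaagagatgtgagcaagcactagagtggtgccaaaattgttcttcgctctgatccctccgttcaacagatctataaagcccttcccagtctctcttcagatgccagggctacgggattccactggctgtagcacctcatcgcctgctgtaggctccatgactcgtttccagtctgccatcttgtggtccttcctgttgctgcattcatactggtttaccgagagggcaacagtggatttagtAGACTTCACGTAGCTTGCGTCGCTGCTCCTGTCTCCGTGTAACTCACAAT
LINC01967, chr3:28028555-28028854, minus strand: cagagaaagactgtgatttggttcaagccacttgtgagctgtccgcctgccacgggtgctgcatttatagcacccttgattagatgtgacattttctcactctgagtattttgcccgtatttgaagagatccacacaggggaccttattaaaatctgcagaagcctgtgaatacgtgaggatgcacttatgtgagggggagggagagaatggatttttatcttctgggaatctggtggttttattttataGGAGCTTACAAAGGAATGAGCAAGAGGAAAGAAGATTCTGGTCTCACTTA
RASAL2-AS1, chr1:178093944-178094140, minus strand: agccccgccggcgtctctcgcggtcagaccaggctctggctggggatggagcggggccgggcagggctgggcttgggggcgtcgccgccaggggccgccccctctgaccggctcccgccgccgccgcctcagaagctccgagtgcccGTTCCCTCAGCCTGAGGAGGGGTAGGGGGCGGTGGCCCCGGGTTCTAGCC

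The last 50 bases of the longest annotated transcript are given next for 5 of the RNAs, from GENCODE 29 on GRCh38, with the polyadenylation hexamer AATAAA in capitals where it occurs. SEMA6A-AS2 is included as the RNA without one. The starts above are from RefSeq and these ends are from GENCODE, and for LINC01967 the gene models differ. The RefSeq start of LINC01967 lies 30664 bp downstream of the GENCODE start. Its RefSeq span is 21409 bp, against 142495 bp in GENCODE, and the end printed here lies beyond the RefSeq span. The printed start and end of LINC01967 are therefore not those of a single gene model.
LINC02458, chr12:89010681-89010730, minus strand: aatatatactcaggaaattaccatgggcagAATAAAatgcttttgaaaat
LINC01967, chr3:27985567-27985616, minus strand: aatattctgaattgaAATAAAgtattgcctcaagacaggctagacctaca
LINC00326, chr6:133106529-133106578, plus strand: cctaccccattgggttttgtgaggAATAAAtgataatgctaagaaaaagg
KANSL1-AS1, chr17:46196674-46196723, plus strand: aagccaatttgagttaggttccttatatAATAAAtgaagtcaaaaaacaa
SEMA6A-AS2, chr5:116591349-116591398, plus strand: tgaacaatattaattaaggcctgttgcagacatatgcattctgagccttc

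The level of all 9 RNAs was higher on average in the NCBP2 libraries. For 8 of the 9, both NCBP2 libraries lay above both control libraries, and the share over all 38 listed genes was 86.8%. IDI2-AS1 was the exception. Since the genes were selected on these libraries, nothing is read from either figure. On the log2(level + 1) scale, which understates the change of genes with low levels, the difference between group means ranged from 0.52 to 2.18 over the 9 RNAs with a median of 0.77, beside a median of 0.69 over the 38 genes. An adjusted p-value below 0.05 was found for 0 of the 9 RNAs in the authors' deposited table, and the share over the whole list was 7.89%. In bulk RNA, more cells with an RNA and more RNA per cell cannot be told apart.

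**Figure D1:**
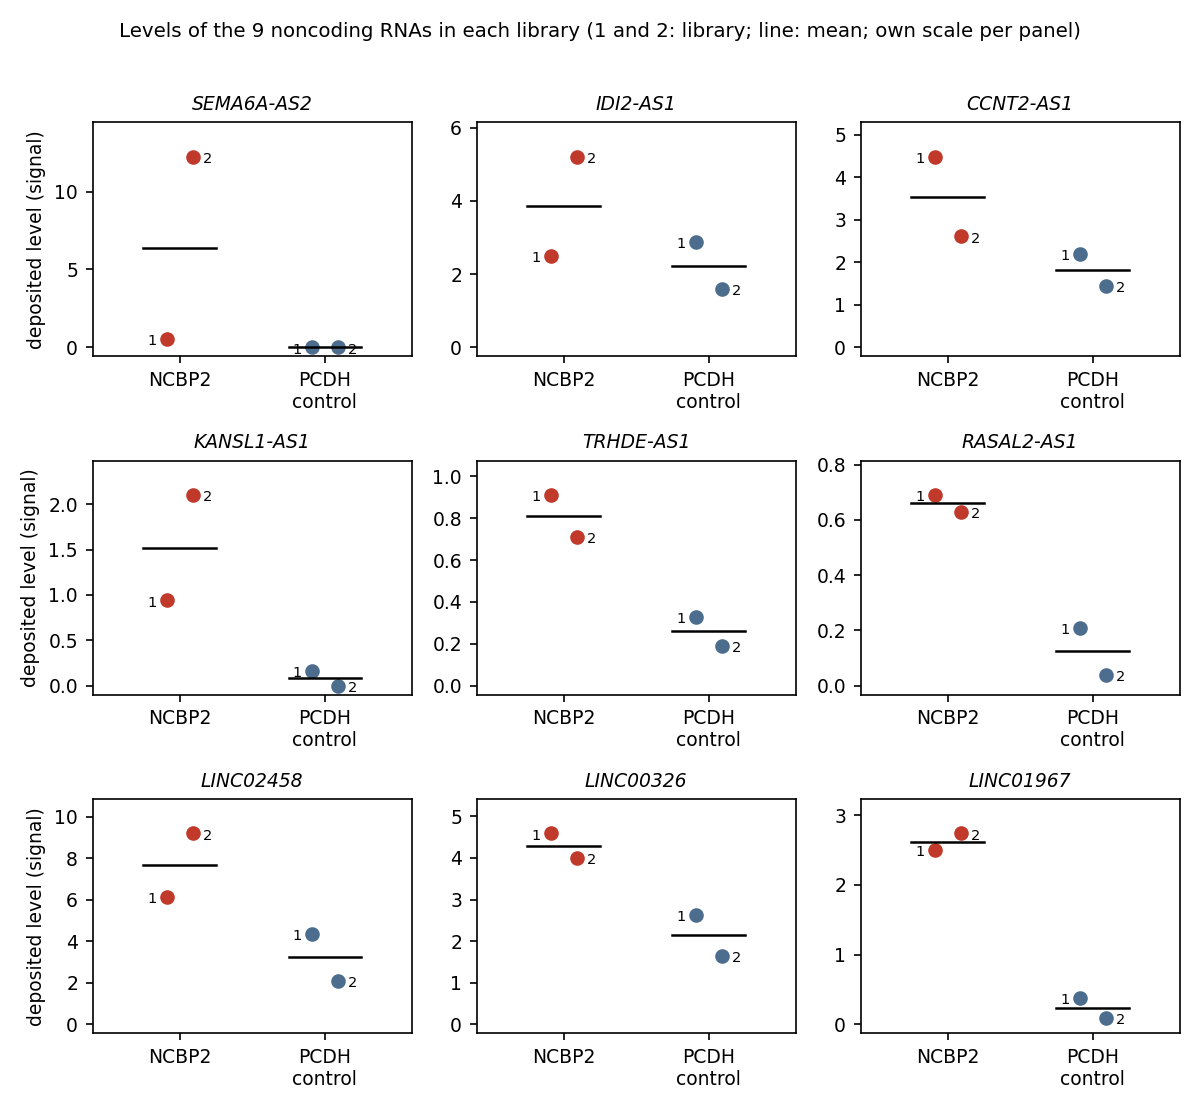
Deposited level (signal, own scale per panel) of each of the 9 noncoding RNAs in the NCBP2 libraries (left) and the PCDH control libraries (right). Points are single libraries with their number and the line is the group mean; the groups overlap only for IDI2-AS1, and SEMA6A-AS2 is listed at 0 in both control libraries.

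Among the intergenic RNAs, LINC01967 showed the clearest separation. Its level was 2.50 and 2.74 in the NCBP2 libraries, against 0.38 and 0.09 in the control libraries. The NCBP2 libraries lay close together and the lowest of them was 6.58-fold above the highest control. The means were 2.62 ± 0.170 with NCBP2 and 0.235 ± 0.205 in the control (SD, n = 2 each), and the log2 difference was 1.56 ± 0.18 (SE). In the authors' deposited table LINC01967 had a fold of 11.0 and a p-value of 0.00490, which became 0.888 after the authors' adjustment.

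LINC02458 had levels of 6.15 and 9.20 in the NCBP2 libraries, against 4.36 and 2.10 in the control libraries. The groups did not overlap, but control library 1 came within 1.41-fold of NCBP2 library 1, and the control libraries differed 2.08-fold between themselves. The log2 difference was 1.07 ± 0.47 (SE, n = 2 each). Its p-value of 0.00155 in the authors' deposited table was the smallest of the 9 RNAs and ranked 9 among the 38 listed genes, with an adjusted p of 0.504.

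LINC00326 had levels of 4.59 and 4 in the NCBP2 libraries, against 2.63 and 1.64 in the control libraries. The lowest NCBP2 library was 1.52-fold above the highest control. The ratio of mean levels was 2.01, beside a fold of 2.27 in the authors' deposited table, and the log2 difference was 0.77 ± 0.24 (SE, n = 2 each). The p-value of LINC00326 in that table was 0.0416.

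Among the antisense RNAs, SEMA6A-AS2 is named after SEMA6A, a transmembrane semaphorin of axon guidance. It was listed at 0.55 and 12.24 in the NCBP2 libraries, against 0 in both control libraries. NCBP2 library 2 thus held 95.7% of its summed level, and the NCBP2 libraries differed 22.3-fold between themselves. The log2 difference of 2.18 ± 1.55 (SE, n = 2 each) was 0.63 without NCBP2 library 2 and 3.73 without NCBP2 library 1. No fold of the levels is given because the control is listed at 0.

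KANSL1-AS1 is named after KANSL1, a scaffold of the NSL histone acetyltransferase complex. Its level was 0.94 and 2.10 in the NCBP2 libraries, against 0.16 and 0 in the control libraries. Both NCBP2 libraries lay above the controls, and the lowest of them was 5.87-fold above control library 1. The log2 difference was 1.19 ± 0.35 (SE, n = 2 each), and it was 1.53 without NCBP2 library 1 and 0.85 without NCBP2 library 2. The authors' deposited table gives a fold of 19.5 and a p-value of 0.0407 for KANSL1-AS1. It enters an adjusted p of 1 for KANSL1-AS1 and SEMA6A-AS2, and the other 5 RNAs besides LINC02458 and LINC01967 share the value 0.978.

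RASAL2-AS1 is named after RASAL2, which encodes a Ras GTPase-activating protein. It had levels of 0.69 and 0.63 in the NCBP2 libraries, against 0.21 and 0.04 in the control libraries. The NCBP2 libraries nearly coincided, whereas the control libraries differed 5.25-fold between themselves at levels not far above the rounding step of 0.01. The log2 difference was 0.57 ± 0.11 (SE, n = 2 each), while the ratio of mean levels was 5.28.

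TRHDE-AS1 is named after TRHDE, the ectoenzyme that degrades thyrotropin-releasing hormone. Its level was 0.91 and 0.71 in the NCBP2 libraries, against 0.33 and 0.19 in the control libraries. The lowest NCBP2 library was 2.15-fold above the highest control. TRHDE-AS1 had the largest p-value of the whole list, 0.0495, with a fold of 2.48 in the authors' deposited table, where the ratio of mean levels was 3.12. It was thus among the genes just inside the authors' selection, as was CCNT2-AS1 with a p-value of 0.0494. No RNA just outside the selection was analysed here.

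CCNT2-AS1 is named after CCNT2, which encodes a cyclin subunit of the elongation factor P-TEFb. Its level was 4.49 and 2.61 in the NCBP2 libraries, against 2.20 and 1.45 in the control libraries. The groups were only just separate, since NCBP2 library 2 was 1.19-fold above control library 1. The ratio of mean levels was 1.95, below 2, and the log2 difference was 0.67 ± 0.36 (SE, n = 2 each).

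IDI2-AS1 is named after IDI2, an isopentenyl diphosphate isomerase gene beside IDI1, its paralog in isoprenoid synthesis. Its level was 2.49 and 5.21 in the NCBP2 libraries, against 2.88 and 1.59 in the control libraries. NCBP2 library 1 was below control library 1, so the groups overlapped. The ratio of mean levels was 1.72, and the log2 difference was 0.55 ± 0.51 (SE, n = 2 each). It was 0.14 without NCBP2 library 2. IDI2-AS1 also had the smallest fold of the 9 RNAs in the authors' deposited table, 2.07.

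**Figure D2:**
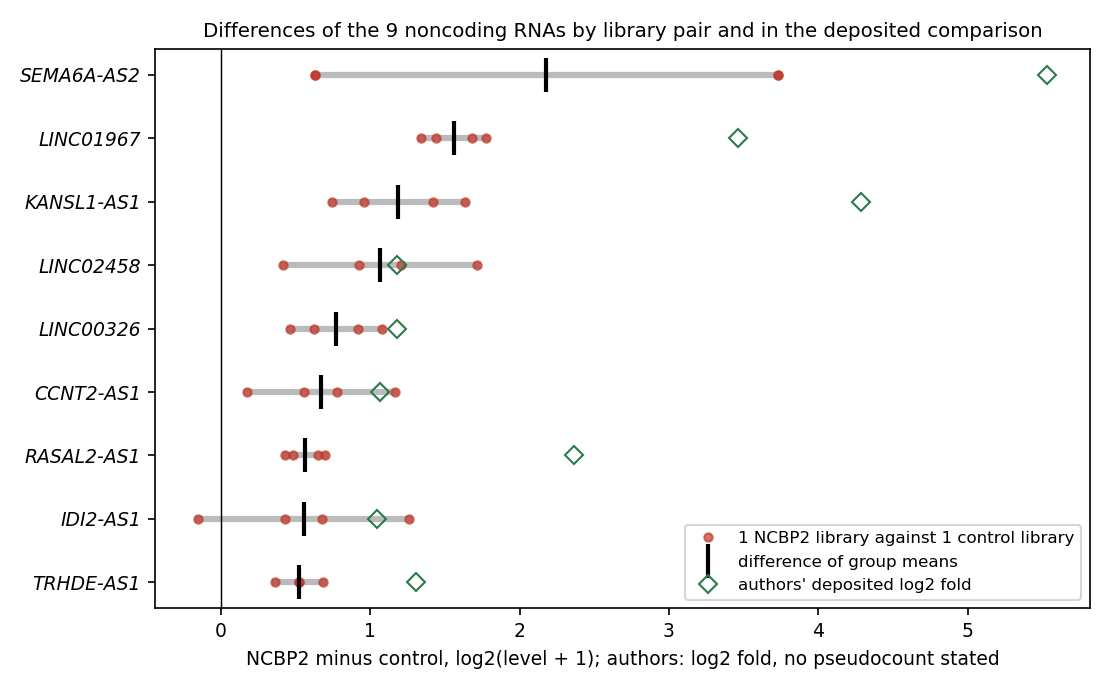
Difference between NCBP2 and control on the log2(level + 1) scale for each RNA, as 4 pairs of 1 NCBP2 and 1 control library (points), the difference of group means (bar) and the authors' deposited log2 fold (diamond). LINC01967 lies above 1 in every pair, IDI2-AS1 has a pair below 0, and SEMA6A-AS2 has the widest spread.

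Of the 8 RNAs with a control level above 0, the ratio of mean levels reached 2 for 6, beside 83.9% over the listed genes with such a level. CCNT2-AS1 and IDI2-AS1 did not reach it. The ratio of levels lay between 0.833 times the deposited fold for IDI2-AS1 and 1.26 times the deposited fold for TRHDE-AS1. For NCBP2 itself it was 3.02 times the deposited fold. Among the 8 RNAs, KANSL1-AS1 and LINC01967 had the largest ratios by levels as well as by the authors' deposited fold. RASAL2-AS1 followed at 5.28, and the other 5 had ratios of levels between 1.72 and 3.12. SEMA6A-AS2, not among the 8, had a larger deposited fold of 46.3.

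The libraries within a group were not alike. Control library 2 was below control library 1 in all 8 RNAs whose control libraries differed, and in 20 of 22 such other listed genes. The median ratio of control library 2 to control library 1 was 0.552 for the 7 RNAs above 0 in both and 0.552 for 21 other listed genes. NCBP2 library 2 was above NCBP2 library 1 in 5 of the 9 RNAs, with a median ratio of 1.10. When control library 2 was multiplied by 1.81, the median factor that brings it to control library 1 over other listed genes, the groups were separate for 7 of the 9 RNAs, and the median log2 difference was 0.54. CCNT2-AS1 was the RNA no longer separate. Whether the lower control library 2 reflects depth, scaling or the cells was not tested.

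**Figure D3:**
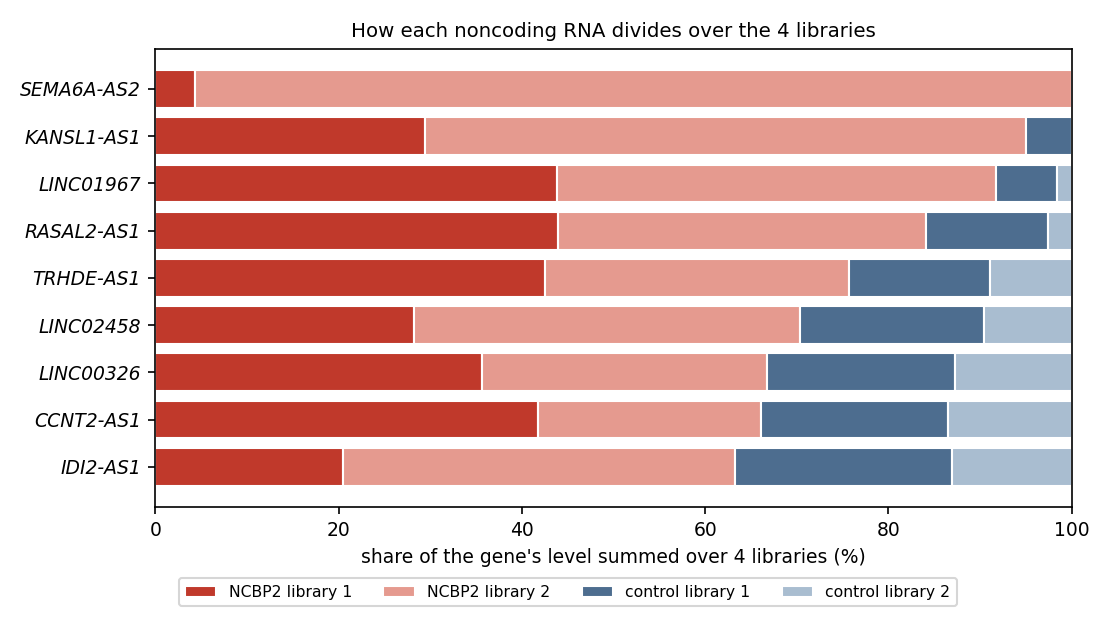
Share (%) of each RNA's level, summed over the 4 libraries, that falls in NCBP2 libraries 1 and 2 and in control libraries 1 and 2. The NCBP2 libraries hold between 63.3% (IDI2-AS1) and 100% (SEMA6A-AS2), and most of SEMA6A-AS2 is NCBP2 library 2.

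Averaged over the 9 RNAs, the summed level divided into 32.2% and 47.0% in NCBP2 libraries 1 and 2, and 13.9% and 6.88% in control libraries 1 and 2. LINC02458 was closest to this profile, with 8.85% of its level placed differently, and SEMA6A-AS2 farthest, with 48.7%. SEMA6A-AS2 held 4.30% of its level in NCBP2 library 1 and 95.7% in NCBP2 library 2, which raises the mean share of library 2. The 3 other listed genes with the most similar profile were the readthrough PDCD6-AHRR (7.67%), the pseudogene TTLL13P (7.73%) and the zinc finger gene ZBED6 (7.86%), measured over the 4 libraries as the share of the level that would have to be moved between libraries to match. All of these profiles carry the selection for higher levels with NCBP2.

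The annotation gives features that the authors' selection by fold and p-value did not use, although the choice of the 9 RNAs by their descriptions did bear on them. All 9 RNAs had an entry in GENCODE 29. The start of 5 of the 9 lay within 1000 bp of an opposite-strand start of a protein-coding gene: SEMA6A-AS2 at 87 bp from a SEMA6A start, CCNT2-AS1 at 112 bp from a CCNT2 start, RASAL2-AS1 at 157 bp from RASAL2, KANSL1-AS1 at 176 bp from a KANSL1 start and TRHDE-AS1 at 398 bp from a TRHDE start. Over 16054 long noncoding RNA genes this share was 18.3%, and over the 3086 with an -AS or LINC symbol it was 20.5%. The 9 RNAs include 6 antisense names, a class that lies at other genes by its naming, so the shares are given side by side and no test was made. These are the nearest annotated transcript starts, which for most partners are not the outermost start of the gene. The nearest start lay upstream of SEMA6A-AS2, CCNT2-AS1, RASAL2-AS1 and KANSL1-AS1, and 398 bp downstream of the start of TRHDE-AS1. By the outermost start of the partner gene, RASAL2-AS1 was the RNA that points apart from its partner without overlapping it. The outermost starts of CCNT2 and SEMA6A lay 475 bp and 452 bp downstream of the RNA's start, so these genes overlap the start of the RNA. KANSL1-AS1 lies wholly within KANSL1, whose outermost start is 31813 bp downstream, and TRHDE-AS1 lies wholly within TRHDE.

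**Figure D4:**
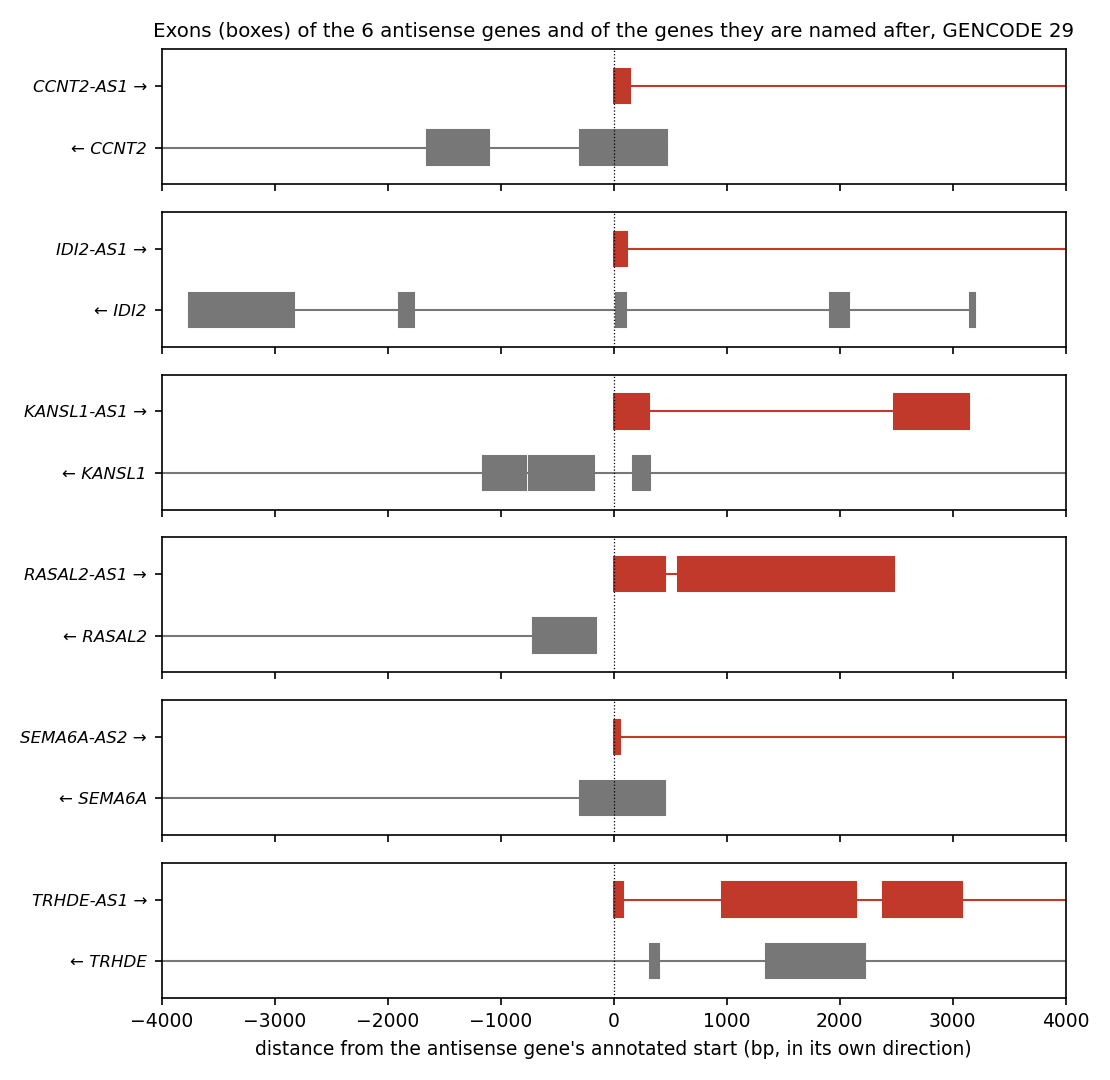
Exons (boxes) of the 6 antisense RNA genes (upper row of each panel, in red) and of the genes they are named after (lower row, grey, transcribed leftwards), against distance in bp from the start of the antisense gene in its own direction. Each panel shows only the region around the start, so exons farther away lie outside the view. RASAL2-AS1 shares no exonic base with RASAL2, and the other 5 overlap exons of their partner.

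Exons of 6 of the 9 RNAs overlap exons of a gene on the opposite strand, and none overlaps exons on its own strand. The share over other long noncoding RNA genes was not computed. Antisense names mark genes that lie at other genes, so nothing is read from the count. The overlap was 793 bp for TRHDE-AS1 with TRHDE, 148 bp for CCNT2-AS1 with CCNT2 (and 94 bp with the neighbouring protein-coding gene ACMSD), 136 bp for KANSL1-AS1 with KANSL1 and 58 bp for SEMA6A-AS2 with SEMA6A. IDI2-AS1 overlaps IDI2 by 93 bp and IDI1 by 643 bp, and LINC01967 overlaps the noncoding gene LINC01980 by 107 bp. Without strand in the counting, reads from an RNA and its opposite-strand partner cannot be told apart there, and the sources used here do not say whether strand was used. None of the 6 sense partners by symbol is among the 38 listed genes. RASAL2-AS1, LINC00326 and LINC02458 have no exonic overlap with any annotated gene.

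The intergenic RNAs lie far from protein-coding genes. LINC02458 (GRCh38 chromosome 12, 89010681 to 89019679, minus strand) lies 327553 bp from DUSP6, a MAP kinase phosphatase gene. LINC01967 (chromosome 3, 27916774 to 28059268, minus strand) lies 182316 bp from CMC1, and LINC00326 (chromosome 6, 133088080 to 133106578, plus strand) lies 134020 bp from EYA4, a transcriptional coactivator gene. The nearest other listed gene on the same chromosome was 5312713 bp or more away for each of the RNAs that had one, the closest pair being CCNT2-AS1 and LRP1B.

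The RNAs are mostly spliced and of ordinary length for named long noncoding RNAs. The longest annotated transcript had a median of 1231 nt and 3 exons, beside 1038 nt and 3 exons over the 3086 genes with an -AS or LINC symbol. The longest transcripts of KANSL1-AS1 and TRHDE-AS1 have 1 exon, which is 22.2% of the 9 RNAs. That share was 5.15% over the genes with an -AS or LINC symbol and 22.6% over all long noncoding RNA genes. AATAAA or ATTAAA stood in the last 50 bases of the longest transcript for 8 of the 9 RNAs, as in the sequences printed above. The share was 53.3% over the genes with an -AS or LINC symbol and 45.5% over all long noncoding RNA genes. The hexamer began 20 to 37 bases before the transcript end. SEMA6A-AS2, with a single annotated transcript of 482 nt, was the RNA without it. A hexamer is a match of letters and says nothing of where these cells end the RNA.

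The 6 promoter windows were of unlike composition. Those of RASAL2-AS1, CCNT2-AS1 and TRHDE-AS1, whose GENCODE starts lie near a protein-coding start, had GC contents of 75.0%, 67.3% and 64.0% and held 27, 34 and 24 CpG dinucleotides. Those of LINC02458, IDI2-AS1 and LINC01967 had 50.3%, 44.7% and 43.7% GC and 10, 6 and 4 CpG dinucleotides. Exons of the protein-coding partner cover all 300 bases of the CCNT2-AS1 window, 103 for RASAL2-AS1, 98 for TRHDE-AS1 and 4 for IDI2-AS1. The composition there is thus in part, and for CCNT2-AS1 wholly, that of partner exons. All windows lie at RefSeq starts, and the RefSeq start of TRHDE-AS1 is 1398 bp downstream of its GENCODE start. The median GC content was 58.7% over all 35116 RefSeq promoters and 50% over 12917 promoters of long noncoding RNAs, and the median number of CpG dinucleotides was 14 over all promoters and 5 over those of long noncoding RNAs.

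**Figure D5:**
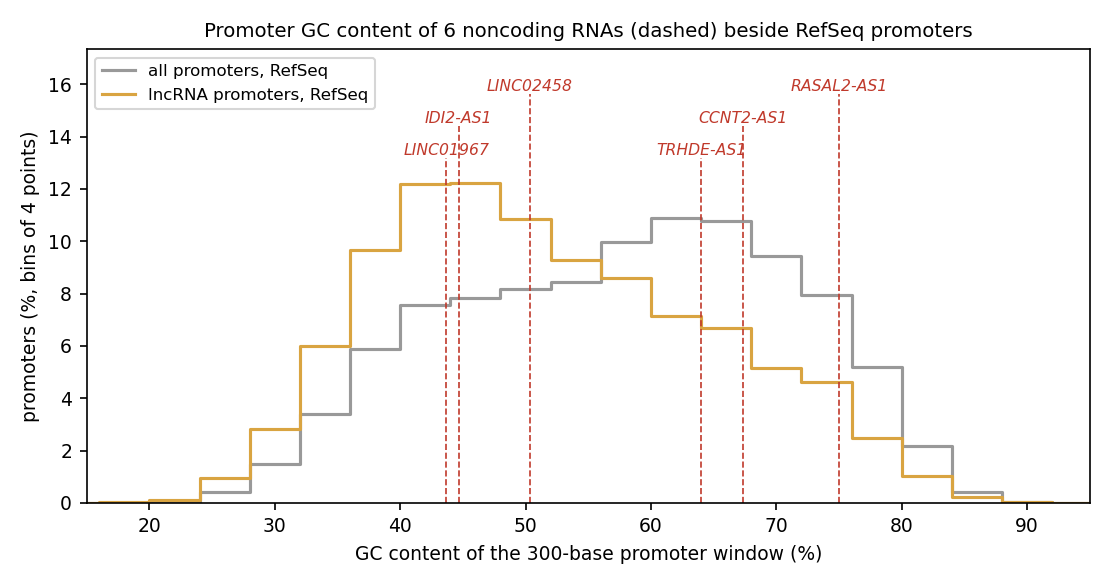
GC content (%) of the 300-base promoter windows of 6 RNAs (dashed lines) beside the distribution over all RefSeq promoters and over promoters of long noncoding RNAs (percent of promoters in bins of 4 points). RASAL2-AS1, CCNT2-AS1 and TRHDE-AS1 lie at 64.0% or above, and the other 3 RNAs at 50.3% or below.

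Motifs were searched by their letters on both strands. GGGCGG, the GC box, occurred in the windows of CCNT2-AS1, RASAL2-AS1 and TRHDE-AS1, as in 15786 of the 35116 promoters and 25.5% of those of long noncoding RNAs, and CCNT2-AS1 held 4 copies. GCGCATG, part of the motif known for NRF1, occurred in the window of CCNT2-AS1, where matches on both strands overlap, in 4.43% of all promoters and in 3.01% of those of long noncoding RNAs. TATAAA occurred in the windows of LINC01967, where 1 of 2 matches, on the other strand, began 6 bases before the start, and of LINC02458, 171 bases before it, as in 11.5% of all promoters and 15.1% of those of long noncoding RNAs. CCAAT occurred in the windows of CCNT2-AS1 and TRHDE-AS1, as in 34.6% of all promoters and 34.5% of those of long noncoding RNAs. GGGCGG does not overlap the other motifs. The matches of CCNT2-AS1 all lie in CCNT2 exon sequence, which fills its window. These matches are descriptions of the window and not binding sites.

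The lists chosen for the pathway had no member in the table. This held for 25 genes of the cap-binding complex and nuclear RNA decay, such as NCBP1, SRRT, PHAX and the exosome subunits, and for 15 much studied long noncoding RNAs, such as MALAT1 and NEAT1. Their levels were not analysed here.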

How the data were processed

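RNA of HCT116 cells overexpressing NCBP2 (2 libraries) and of the PCDH control (2 libraries) was sequenced, per the labels' protocols. Per the file headers, the authors deposited 38 genes with an expression level per library, p-values before and after adjustment, and the NCBP2 over control fold as a linear ratio and as log2. The deposited levels are signal values rounded to 0.01, with a unit and scaling not given in the sources used here. Bowtie 0.12.2 and mm9, a mouse build, are named in the submitters' processing notes, while the gene identifiers are human. Control columns are headed EV and were tied to the group, not to single samples.

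Group means, SDs and differences of log2(level + 1) were computed with Python 3.11.15, pandas 2.3.3 and numpy 2.4.6. No test was made, because every listed gene was chosen on this contrast. The 9 genes, the gene lists and the alternatives were chosen with earlier results of these data known. All 9 genes were named, with NCBP2 and the 3 other listed genes of most similar profile. Positions and transcripts came from GENCODE 29 on GRCh38, and promoter sequences from RefSeq on GRCh38.p14. Depth is unknown, so no counting interval is given.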

Additional observations from a re-analysis of the deposited data

How the results depend on the processing

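The median log2 difference of the 9 RNAs (0.77) was 1.36 with a pseudocount of 0.1, 1.64 with 0.01 and 1.31 with the authors' deposited log2 fold. A smaller pseudocount gives larger differences at low levels, and where a control is listed at 0 it sets their size. With 0.01, SEMA6A-AS2 reached 8.03 and KANSL1-AS1 5.10, above their deposited log2 folds of 5.53 and 4.29. Leaving out each library in turn gave medians of 0.54 to 1.00. The number of RNAs with separate groups (8 of 9) was 5 of the 6 with a mean level of at least 1 and 5 of the 6 with an antisense symbol, where fewer genes enter, and 8 to 9 with each library left out in turn, a step that cannot lower it. The scaling of control library 2 and the omission of SEMA6A-AS2 (7 of the 8 other RNAs separate, median 0.72) were chosen after seeing the data. No difference of a single RNA changed sign under the alternatives run. For the 8 RNAs with separate groups, another pseudocount or the omission of a library cannot change the sign. The deposited log2 folds were positive by the authors' selection, so little is read from this. No paired analysis was possible because no test was made on genes chosen from this contrast and the control columns are not tied to single samples. Without depth, the number of reads behind a low level is not known.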

Other observations

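The annotated start differs between catalogues for some of the RNAs. The RefSeq start of LINC01967 lies 30664 bp downstream of the GENCODE 29 start and its RefSeq span is 21409 bp, against 142495 bp in GENCODE 29. For TRHDE-AS1 the RefSeq start lies 1398 bp downstream and for CCNT2-AS1 104 bp, whereas the starts of LINC02458, IDI2-AS1, RASAL2-AS1, KANSL1-AS1 and LINC00326 differ by at most 29 bp. SEMA6A-AS2 spans 36783 bp in RefSeq, against 16917 bp in GENCODE 29. The sources used here do not name the annotation behind the deposited levels, so which of these gene models a level covers cannot be said.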
